A study of Rattus norvegicus with 9 samples.

Results

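Superior mesenteric arteries (SMAs) of Sprague-Dawley rats were compared between 4 h and 1 h after ischemic injury, to ask which transcripts were transient, which were late, and which moved with the amount of sympathetic neuron RNA in the sample. Of the 37203 genes in the table, 15068 had at least 10 counts in at least 3 of the 6 ischemic libraries, and all of these were examined. Of these, 12614 reached 10 counts in all 6 libraries. At the edge of the rule, 781 genes reached 10 counts in exactly 3 libraries and were kept, and 541 reached it in exactly 2 and were left out.

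The groups were Normal, Ischemia 1h and Ischemia 4h, with 3 libraries each, all from 8-week-old rats. Ischemia was produced by bleeding from a femoral artery under sodium pentobarbital, so that blood was withdrawn from the whole animal. Each library is written here as its time and replicate number (1 h-1 to 4 h-3). No strain or genotype separates the groups, and the labels do not say whether a library was 1 rat or a pool. Anaesthesia and catheters are described for the ischemia model only, and no sham is described for the normal group. The normal libraries served to sort genes into transient and late ones, and they entered the estimate of spread.

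The SMA carries a dense net of sympathetic nerve fibres in its outer coat, and cell bodies of such fibres lie in ganglia close to the root of the vessel. These neurons make noradrenaline from tyrosine. Th catalyses the first and rate-limiting step, Ddc the next, and Dbh turns dopamine into noradrenaline inside vesicles. After an injury, cells first transcribe immediate early genes, whose products are mostly transcription factors, and later genes for adhesion molecules, cytokines and matrix.

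Because Dbh and Th were used as the measure of neuron content, the sequences around their start sites are shown, with that of Egr2, an immediate early gene described further on. Each runs from 250 bases before to 50 bases after the start of the gene, 5′ to 3′ on the gene's own strand, and was taken from RefSeq (rat assembly GRCr8). Dbh lies at chr3:30886078-30886377 on the + strand, Th at chr1:207508169-207508468 on the − strand and Egr2 at chr20:21054392-21054691 on the − strand. Capitals mark matches on either strand to the cAMP response element (CRE, TGACGTCA), its core (TGACG), the AP-1 element (TGANTCA) or the CArG box, which serum response factor binds.
Dbh: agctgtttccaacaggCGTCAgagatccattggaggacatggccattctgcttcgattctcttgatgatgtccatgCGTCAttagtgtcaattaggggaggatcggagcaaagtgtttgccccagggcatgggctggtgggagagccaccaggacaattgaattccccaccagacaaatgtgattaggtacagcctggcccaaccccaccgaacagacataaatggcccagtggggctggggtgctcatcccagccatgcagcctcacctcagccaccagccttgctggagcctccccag
Th: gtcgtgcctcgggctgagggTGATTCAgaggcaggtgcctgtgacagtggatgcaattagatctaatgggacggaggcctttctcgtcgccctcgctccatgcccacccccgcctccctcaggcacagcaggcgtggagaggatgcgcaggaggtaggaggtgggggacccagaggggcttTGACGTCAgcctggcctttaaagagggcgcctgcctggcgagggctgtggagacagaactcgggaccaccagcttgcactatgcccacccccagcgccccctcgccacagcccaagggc
Egr2: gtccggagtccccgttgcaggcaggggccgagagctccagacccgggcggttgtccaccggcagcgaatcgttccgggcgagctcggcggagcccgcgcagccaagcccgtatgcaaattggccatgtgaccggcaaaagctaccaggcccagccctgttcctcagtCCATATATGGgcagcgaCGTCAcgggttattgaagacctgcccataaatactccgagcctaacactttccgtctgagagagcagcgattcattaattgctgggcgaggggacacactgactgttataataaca

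Counted from the start site, Th had a full CRE at positions -69 to -62 and an AP-1 element at -230 to -224. Dbh had CRE cores at -234 to -230 and at -174 to -170. Egr2 had a CArG box at -83 to -74 and a CRE core at -66 to -62. A full CRE was found in 1.83%, an AP-1 element in 7.33%, a CRE core (which every full CRE also holds) in 21.2% and a CArG box in 1.64% of 33469 rat promoter windows of this length. The CRE core and the CArG box were added to the search after values had been seen. The search also covered the E-box, the D-box and the NF-kB, hypoxia, glucocorticoid and Phox2 elements. None of these had a match in Dbh, Th or Egr2. The windows of Per1 and Cry2 were searched too, and the only match was a hypoxia element in Cry2. These matches describe letters, not binding.

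Neuron content differed more among libraries of 1 stage than between the stages. Dbh was at 1850.5, 225 and 1868 CPM at 1 h and at 0.661, 0.249 and 2035 CPM at 4 h, where CPM is the count relative to library size. The library 4 h-3 thus stood with 1 h-1 and 1 h-3, and 1 h-2 lay between them and 4 h-1 and 4 h-2, which had only 8 and 3 counts of Dbh. Those counts allow at most 1.30 and 0.726 CPM (95% exact binomial interval, counting error only). In normal libraries Dbh was at 117, 0 and 66.6 CPM, where 0 counts allow up to 0.27 CPM by the same interval and 0.219 CPM by a floor of 3 counts. Th followed with 721, 68.1 and 661 CPM at 1 h and 0.165, 0.994 and 577 CPM at 4 h. The log2 fold change between 4 h and 1 h was -0.95 (SE 2.58) for Dbh and -1.33 (SE 2.28) for Th, both within their errors.

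Other genes of noradrenergic neurons showed the same order of libraries. Slc6a2, the noradrenaline transporter, was at 526, 62.4 and 601 CPM at 1 h and at 0.165, 0.0829 and 655 CPM at 4 h. Nefl, a neurofilament subunit, was at 549.6, 52.9 and 567 CPM at 1 h and at 0.0826, 0.0829 and 642 CPM at 4 h. Chrna3, a nicotinic receptor subunit of autonomic ganglia, was at 289, 25.6 and 267 CPM at 1 h and at 0.248, 0.414 and 255 CPM at 4 h. In each of these 1 h-1, 1 h-3 and 4 h-3 were high, 1 h-2 was far below them, and 4 h-1 and 4 h-2 were near 0, so the stages overlapped through 4 h-3. Of the 25 sympathetic neuron genes tested, 24 were lower at 4 h, with a median log2 fold change of -1.11 against -0.039 over all genes tested, and 0 had an unadjusted p under 0.05. That median was -7.34 without 4 h-3, -0.56 without 4 h-1, -0.55 without 4 h-2 and -0.71 without 1 h-3. Npy, Isl1 and Hand2 were the members whose level did not pass the test for following Dbh and Th, described next. Hand2, a transcription factor that other cells also hold, was at 24.4, 8.85 and 24.8 CPM at 1 h and at 21.9, 13.2 and 23.8 CPM at 4 h.

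**Figure D1:**
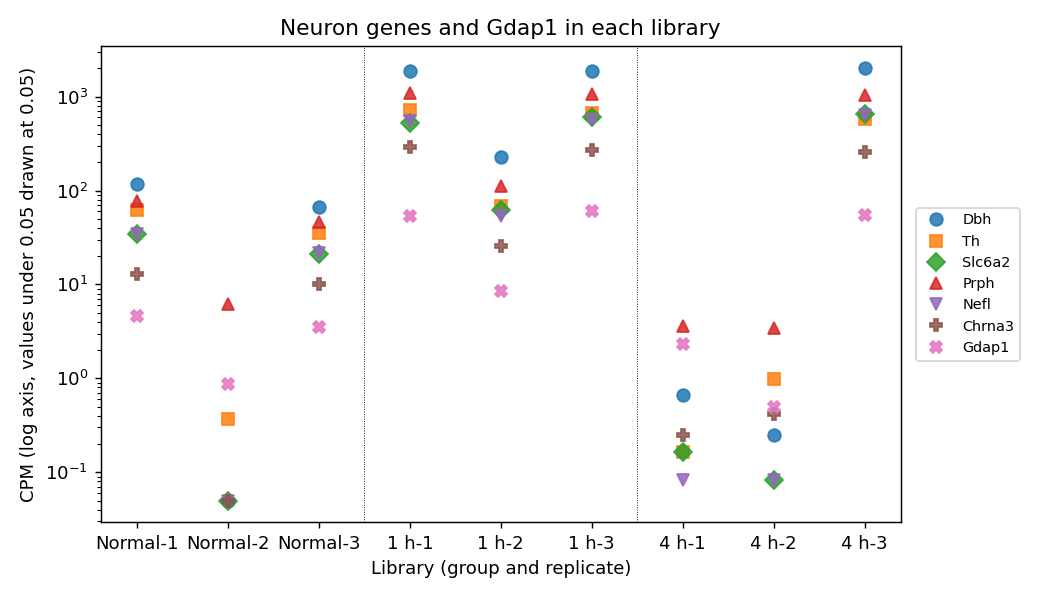
Levels of Gdap1 and 6 neuron genes in the 9 libraries, in CPM on a log axis, with values under 0.05 CPM drawn at 0.05. Each symbol is 1 gene, and Dbh for example sits at 1850.5, 225 and 1868 CPM at 1 h and at 0.661, 0.249 and 2035 CPM at 4 h, so that 4 h-3 stands with 1 h-1 and 1 h-3.

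Chromaffin cells of the adrenal medulla also make Dbh and Th, so their genes were set beside these. Pnmt, the enzyme that makes adrenaline, was at 1.49 CPM or less in every library. Slc18a1, of the same list, was at 16.2, 1.46 and 9.78 CPM at 1 h and at 0, 0 and 5.99 CPM at 4 h, and it followed the neuron score described below. Chga, a granule protein that neurons also hold, was at 79.7, 11.3 and 160.2 CPM at 1 h and at 0.3304, 0.911 and 116 CPM at 4 h. Of 6 chromaffin genes, 4 followed the neuron score. Of 12 genes of Schwann cells, which wrap peripheral fibres, 1 did, Ngfr, which neurons also express, against 7.86% of all genes that rose with the score, a share too close to read a difference from. Mbp, a myelin protein, was at 172, 508 and 342 CPM at 1 h and at 56.7, 473 and 364 CPM at 4 h, so 4 h-2 had nearly as much of it as 1 h-2 with almost no Dbh. Fewer neurons in a sample and less neuron RNA per cell cannot be told apart in bulk tissue.

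To measure how each gene moved with neuron content, the mean log2 CPM of Dbh and Th was taken as a neuron score and added to the fit as a continuous term. The score was 10.2, 6.95 and 10.1 at 1 h, -1.02, -0.60 and 10.1 at 4 h, and 6.41, -1.92 and 5.61 in normal libraries. Its mean was 9.08 ± 1.84 at 1 h and 2.82 ± 6.29 at 4 h (SD, n = 3 each). Within groups, 1184 of 15066 genes rose with the score (7.86%) and 62 fell with it (0.412%), at an adjusted p under 0.05 in edgeR's quasi-likelihood test. These 1246 genes became 228 without 4 h-3 and 687 without 4 h-1, of which 223 and 674 were shared with the 1246. Of the rising genes, 430 had at least 10 counts in all 6 ischemic libraries. A further 230 reached 10 counts in only the 3 libraries with the most Dbh and so had to vary with it.

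The genes with the smallest p for this slope included Drd2, Ina, Nefl, Nfasc, Slc7a14, Tmem178b, Elavl2 and Elavl4. They include a dopamine receptor (Drd2), cytoskeletal and axonal proteins of neurons (Ina, Nefl, Nfasc) and neuronal RNA-binding proteins (Elavl2, Elavl4). Drd2 was at 50.1, 2.73 and 55.2 CPM at 1 h and at 0, 0 and 37.3 CPM at 4 h, and its slope was 1.29 log2 units per unit of score (SE 0.044, adjusted p = 8.02e-06 by edgeR). Elavl4 was at 44.1, 4.33 and 42.4 CPM at 1 h and at 0, 0 and 41.1 CPM at 4 h, with a slope of 1.06 (SE 0.041, adjusted p = 8.11e-06 by edgeR). Both genes were at 0 in 4 h-1 and 4 h-2. The rising genes together took 7.0%, 1.49% and 8.50% of all counts at 1 h and 0.441%, 0.643% and 7.61% at 4 h, with counting intervals no wider than ±0.0149 percentage points.

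Between the stages, 0 of 15068 genes (0%) passed both thresholds, an adjusted p under 0.05 and a fold change over 1.5, and the smallest adjusted p was 0.856 (edgeR). An unadjusted p under 0.05 was reached by 379 genes (2.52%), 205 higher at 4 h (1.36%) and 174 lower (1.15%). Scaling by library size alone moved the median of all genes from -0.039 to -0.24 and gave a split of 68 higher and 224 lower. DESeq2 also called 0 genes, with 533 at an unadjusted p under 0.05. The 379 genes became 3255 without 4 h-3, 830 without 1 h-2, 171 without 4 h-2, 124 without 4 h-1 and 113 without 1 h-3. Without 1 h-3, 1 uncharacterised gene, LOC100910575, was called (adjusted p = 0.0489 by edgeR), and it was named after its value was seen.

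At an equal neuron score, 0 of 15066 genes were called (0%), and 160 had an unadjusted p under 0.05 (1.06%), 42 higher (0.279%) and 118 lower (0.783%). No library at 1 h scored below 6.95, and only 4 h-3 (10.1) of those at 4 h lay in that range. Values at an equal score, here and below, therefore rest on a straight line drawn between unlike scores, or on 4 h-3. DESeq2 called 2 genes in that fit, RT1-CE10 and Serpina3n, and gave 196 at an unadjusted p under 0.05. Leaving out single libraries gave 101 (without 1 h-3) to 432 (without 4 h-3) such genes in edgeR. The split was 76 higher and 79 lower without 1 h-2, 218 and 214 without 4 h-3, and 67 and 38 with a replicate block, so the excess of lower genes was not stable. The common biological coefficient of variation was 51.2% with groups only and 35.3% with the score. Differences of single genes given below therefore did not pass the correction over all genes in edgeR, and their unadjusted p and the overlap of libraries are measurements only.

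Genes that rose with the score were nearly all lower at 4 h, where the mean score was lower. With groups only, 1143 genes were more than 2-fold lower at 4 h and 286 more than 2-fold higher. Of the 1143, 540 rose with the score, and their median log2 fold change of -1.21 was 0.0023 at an equal score, where 5 of them stayed past 2-fold. The other 603 had a median of -1.28, which was -0.70 at an equal score, and 176 of them stayed past 2-fold. Of the 286 higher genes, 279 did not pass the slope test, and their median of 1.21 was 0.51 at an equal score, with 63 still past 2-fold. Over all 1184 rising genes, 1176 were lower at 4 h, with a median of -0.97 and then 0.17 at an equal score. Within these, the median with groups only was -1.03 for the 230 that passed only through the Dbh-rich libraries and -0.80 for the 430 at 10 counts in all 6. These genes were chosen by their slope on the score in these same libraries, so a value nearer 0 at an equal score follows from the choice and supports nothing.

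**Figure D2:**
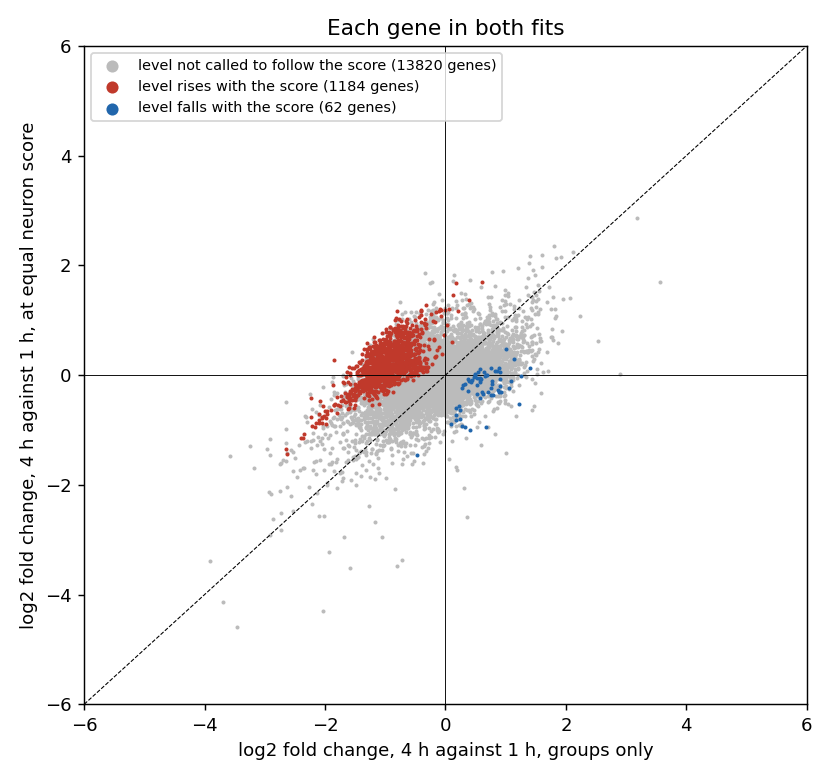
Log2 fold change of 15066 genes between 4 h and 1 h with groups only and at an equal neuron score, coloured by the slope test. The 1184 genes that rose with the score have a median of -0.97 with groups only and of 0.17 at an equal score, as their choice by slope fixes, while 13820 genes passed no slope test.

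Gdap1, a mitochondrial outer membrane protein of neurons that the study names at 1 h, was among the rising genes. It was at 53.5, 8.59 and 60.1 CPM at 1 h and at 2.31, 0.497 and 55.2 CPM at 4 h, high again in the 3 libraries with the most Dbh. Its log2 fold change was -1.07 (SE 1.43) with groups only and 0.093 (SE 0.66) at an equal score. Bid, a BCL2 family member that the study names at 4 h, also rose with the score and was at 10.2, 3.93 and 13.2 CPM at 1 h and at 0.991, 1.74 and 10.5 CPM at 4 h.

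Genes were next sorted by whether the 3 libraries of a stage stood apart, using the same normal libraries for every set. In 474 genes (3.15%) all libraries at 4 h were above all at 1 h, and in 437 (2.9%) all were below. Of all orderings of 3 against 3 libraries, a share of 0.1 separates them in 1 direction or the other. The shares here lie below that, so standing apart does not by itself mark a difference. Transiently high genes, with all libraries at 1 h above all others, numbered 78 (0.518%), and 148 were transiently low (0.982%). Late high genes, with all libraries at 4 h above all others, numbered 148 (0.982%), and 183 were late and low (1.21%). Of these, 41 high ones had already stood above normal at 1 h (0.272%) and 70 low ones below it (0.465%). The share of 0.1 does not apply to the transient and late sets, where 1 stage is set against all other libraries. What orderings alone would give there was not computed, so the sizes of these sets do not mark a difference either.

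Transiently high genes included immediate early transcription factors. Egr3 was at 1.804, 1.39 and 1.85 CPM in normal libraries, at 3.61, 12.4 and 9.101 CPM at 1 h and at 2.395, 1.24 and 3.49 CPM at 4 h. Its log2 fold change between the stages was -1.81 (SE 0.53, unadjusted p = 0.0088) and -1.59 (SE 0.60) at an equal score. Egr2, whose start site is printed above, was at 1.18, 0.659 and 1.48 CPM, then at 4.54, 14.6 and 11.5 CPM, then at 3.06, 2.8999 and 4.02 CPM (log2 fold change -1.61, SE 0.48, unadjusted p = 0.0093). In both, 1 h-1 was the lowest library at 1 h and lay just above the highest at 4 h. At 4 h Egr2 was still above all normal libraries, while Egr3 overlapped them. Arc, a synaptic immediate early gene, was at 10.02, 58.3 and 17.6 CPM at 1 h and at 6.77, 9.11 and 4.21 CPM at 4 h (log2 fold change -2.10, SE 0.68, and -2.57 at an equal score). Egr1 was at 207, 399.7 and 204 CPM and then at 173, 138 and 122 CPM, which also did not overlap (log2 fold change -0.90, SE 0.68, unadjusted p = 0.22). Its libraries at 4 h were still above all normal ones, with counts of 2097, 1666 and 1855 against 233, 261 and 1232. Fosl1, a partner in AP-1, was at 1.07, 22.04 and 7.07 CPM and then at 0.661, 0.497 and 1.12 CPM (log2 fold change -3.70, SE 1.32, and -4.13 at an equal score), where 1 h-1 overlapped 4 h-3. Without 1 h-2, Arc was at -1.05 and Fosl1 at -2.40 on the log2 scale.

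Other immediate early genes had another course. Nr4a1, an orphan nuclear receptor, was at 113, 76.5 and 95.4 CPM in normal libraries, at 648, 902 and 396 CPM at 1 h and at 1763, 1622 and 774 CPM at 4 h. The library 4 h-3 overlapped those at 1 h, and the log2 fold change of 1.10 (SE 0.41, unadjusted p = 0.028) was 0.66 (SE 0.46) at an equal score. Klf4, a stress-inducible factor of vessel cells, was at 65.6, 74.1 and 45.2 CPM, then at 112, 141 and 94.8 CPM, then at 164, 201 and 146 CPM, in steps without overlap (log2 fold change 0.56, SE 0.25, unadjusted p = 0.052). At an unadjusted p under 0.05, 1.36% of all genes were higher at 4 h and 1.15% were lower. Of the 26 immediate early genes tested, 1 was higher at that p (Nr4a1) and 4 were lower (Egr3, Egr2, Arc and Fosl1), with a median of -0.10. That median had no stable sign, from -0.31 (without 1 h-1) to 0.33 (without 1 h-2) and 0.0015 with a replicate block. Among those that did not pass, Junb was at 295, 501 and 302 CPM at 1 h and at 307, 519.9 and 247 CPM at 4 h, at one level in both stages.

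Genes of inflammation and repair were mostly lower at 4 h. Sele, the endothelial adhesion molecule E-selectin, was at 0.676, 0.439 and 0.592 CPM in normal libraries, at 9.55, 10.3 and 10.5 CPM at 1 h and at 0.165, 0.911 and 4.35 CPM at 4 h. The 3 libraries at 1 h lay close together and above all others, and the log2 fold change was -2.46 (SE 0.87, unadjusted p = 0.022) and -1.86 (SE 0.63) at an equal score. It was -4.18 without 4 h-3. Serpina3n, an acute phase protease inhibitor, was at 23.9, 111 and 135 CPM at 1 h and at 1.57, 18.97 and 4.08 CPM at 4 h, with no overlap (log2 fold change -3.46, SE 1.10, unadjusted p = 0.013, and -4.59 at an equal score). Of 18 inflammation genes tested, 17 were lower, 2 of them at an unadjusted p under 0.05 (Sele and Socs3). Over all genes, 8065 of 15068 were lower, and 1.15% were lower at that p. The list's median of -0.84 was -0.59 at an equal score, -2.02 without 4 h-3, -0.53 without 1 h-2 and -0.50 without 1 h-3.

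Some genes were far higher in 1 h-2 and 1 h-3 than in 1 h-1. Osmr, the receptor of oncostatin M, was at 39.8, 42.6 and 25.02 CPM in normal libraries, at 32.7, 176 and 170.4 CPM at 1 h and at 27.7, 27.7 and 50.2 CPM at 4 h (log2 fold change -1.84, SE 0.59, unadjusted p = 0.013). Socs3, a feedback inhibitor of cytokine receptors, was at 16.5, 236 and 148 CPM at 1 h and at 15.3, 15.2 and 53.005 CPM at 4 h (log2 fold change -2.26, SE 0.90). Adamts4, an aggrecan-cleaving protease, was at 4.904, 4.25 and 1.26 CPM, then at 11.8, 46.1 and 83.9 CPM, then at 2.48, 5.72 and 15.5 CPM (log2 fold change -2.57, SE 0.89). In each of these, 1 h-1 was within the range of the libraries at 4 h. Timp1, an inhibitor of matrix proteases, was at 30.3, 141 and 83.4 CPM and then at 46.7, 35.96 and 31.7 CPM (log2 fold change -1.16, SE 0.48), and Thbs1, thrombospondin 1, which was chosen after its values were seen, was at 80.3, 1458 and 731 CPM and then at 58.1, 90.5 and 152 CPM (log2 fold change -2.91, SE 0.90). In neither was 1 h-1 above all libraries at 4 h. Sphk1, which makes sphingosine 1-phosphate, was at 2.54, 5.05 and 0.962 CPM, then at 17.5, 132 and 59.8 CPM, then at 28.5, 18.4 and 27.6 CPM (log2 fold change -1.49, SE 0.74, and -1.79 at an equal score). For Adamts4 and Sphk1, 1 h-1 was above all normal libraries too. Without 1 h-2 the log2 fold change of Timp1 was -0.58. Of 23 secondary response genes tested, 1 was higher at an unadjusted p under 0.05 (Relt) and 4 were lower (Osmr, Serpina3n, Adamts4 and Timp1). Among all genes, 1.36% were higher and 1.15% lower at that p. The list's median was -0.61, -0.51 at an equal score, -0.93 without 1 h-1 and -0.97 without 4 h-3.

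Cish, an inhibitor of cytokine signalling that was also chosen after its values were seen, separated the stages fully. It was at 5.86, 2.93 and 1.78 CPM in normal libraries, at 25.2, 12.98 and 15.8 CPM at 1 h and at 1.57, 4.14 and 6.91 CPM at 4 h (log2 fold change -2.09, SE 0.62, and -1.54 at an equal score). Icam1, an adhesion molecule, overlapped between the stages, and was at 112, 498 and 318 CPM at 1 h and at 106, 149.9 and 236 CPM at 4 h. The chemokine Cxcl1 was at 118, 444 and 605 CPM and then at 72.9, 204 and 627 CPM, where 4 h-3 was the highest library of all.

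All 15 interferon genes tested were lower at 4 h, 5 of them at an unadjusted p under 0.05 (Ifit3, Irf9, Isg15, Mx1 and Oasl), with a median log2 fold change of -1.14. Over all genes these were 8065 of 15068 and 1.15%. At an equal neuron score the median was -0.52 and 0 had an unadjusted p under 0.05. Ifit3, an antiviral protein, was at 7.16, 3.22 and 3.78 CPM in normal libraries, at 11.4, 20.6 and 30.1 CPM at 1 h and at 3.39, 6.71 and 9.68 CPM at 4 h (log2 fold change -1.65, SE 0.52, unadjusted p = 0.012). Irf9, a subunit of the factor that interferons activate, was near its normal level at 1 h (30.98, 29.5 and 38.4 CPM) and below it at 4 h (18.004, 25.4 and 21.8 CPM). Mx1, an antiviral GTPase, was at 23.7, 1.398 and 6.395 CPM and then at 0.3304, 2.32 and 1.45 CPM, which overlapped. Ifi47 and Irgm, interferon-induced GTPases of a family with near-identical members, were lower without overlap, and their levels are uncertain for that reason. Ifi47 was at 8.01, 5.53 and 24.96 CPM and then at 2.23, 2.403 and 3.69 CPM (log2 fold change -2.20, SE 0.60), where 1 h-3 was far above the others and the log2 fold change without it was -1.25. Irgm was at 6.48, 8.79 and 13.8 CPM and then at 3.55, 5.47 and 3.42 CPM (log2 fold change -1.23, SE 0.36). Neither gene is in the list of 15. At an equal score Ifi47 was at -1.72 (SE 0.70, unadjusted p = 0.040 by edgeR), and at -0.94 without 1 h-3. Irgm was at -1.34 in that fit (SE 0.46, unadjusted p = 0.020 by edgeR).

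Relt, a member of the tumour necrosis factor receptor family, was the late high gene with the largest fold change among those named by p. It was at 4.06, 2.78 and 2.07 CPM in normal libraries, at 13.5, 18.5 and 7.93 CPM at 1 h and at 79.4, 48.1 and 27.7 CPM at 4 h, in steps with no overlap. Between the stages its log2 fold change was 1.96 (SE 0.47, unadjusted p = 0.0028), or 3.88-fold, and 1.39 (SE 0.47) at an equal score. When single libraries were left out it ranged from 1.47 to 2.28. H1f0, a linker histone of resting and differentiating cells, was at 158, 143 and 122 CPM in normal libraries, at 146, 157 and 115 CPM at 1 h and at 274, 274 and 219.7 CPM at 4 h. Its libraries at 1 h overlapped the normal ones and those at 4 h were above all others, and the log2 fold change was 0.88 (SE 0.20, unadjusted p = 0.0021) and 0.73 (SE 0.23) at an equal score.

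Further late genes without overlap were Polr2d, Spsb3 and Pigp. Polr2d, a subunit of RNA polymerase II, was at 16.6, 16.8 and 13.4 CPM, then at 14.6, 20.7 and 19.9 CPM, then at 29.6, 26.2 and 28.3 CPM (log2 fold change 0.61, SE 0.20, unadjusted p = 0.014). Spsb3, the substrate-binding part of a ubiquitin ligase, was at 26.8, 26.1 and 24.4 CPM and then at 43.7, 43.2 and 32.2 CPM (log2 fold change 0.62, SE 0.19, and 0.36 at an equal score). Pigp, which takes part in the first step of GPI anchor synthesis, was at 16.1, 13.4 and 12.5 CPM and then at 24.9, 31.5 and 16.5 CPM (log2 fold change 0.80, SE 0.25, and 0.45 at an equal score). The library 4 h-3 was the lowest of its group for Spsb3 and Pigp, though above all at 1 h.

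**Figure D3:**
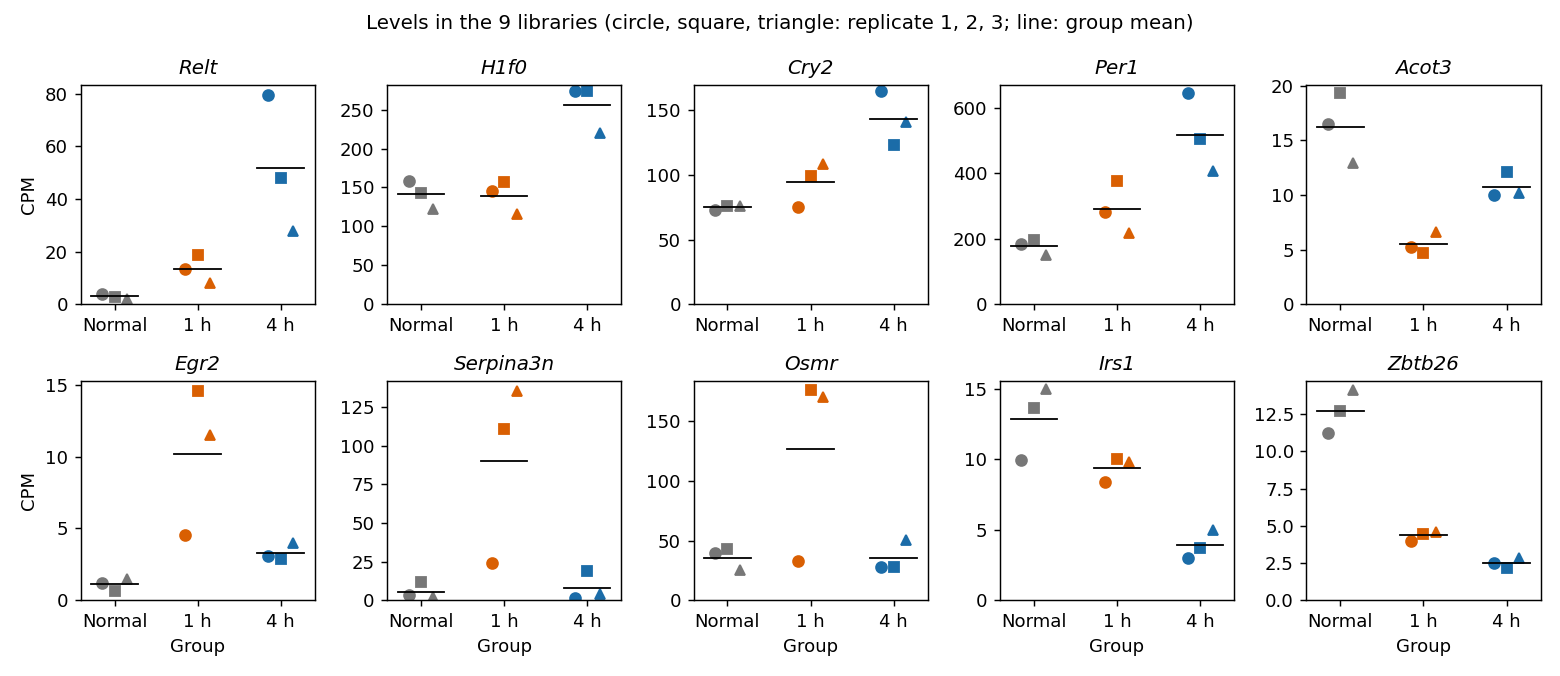
CPM of 10 genes in the 9 libraries, 1 panel per gene, with replicates as symbols and group means as lines. Relt, H1f0, Cry2 and Per1 are highest in all libraries at 4 h, Egr2 and Serpina3n in all libraries at 1 h, Osmr is high in 1 h-2 and 1 h-3 only, Acot3 is lowest at 1 h, and Irs1 and Zbtb26 are lowest at 4 h.

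The late and low genes of smallest p were Irs1, Ppp1r3b and Pdpr. Irs1, the insulin receptor substrate, was at 9.98, 13.6 and 14.95 CPM in normal libraries, at 8.41, 9.99 and 9.78 CPM at 1 h and at 2.97, 3.73 and 5.004 CPM at 4 h. Its log2 fold change between the stages was -1.26 (SE 0.27, unadjusted p = 0.0016) and -1.14 (SE 0.32) at an equal score. Ppp1r3b, which targets protein phosphatase 1 to glycogen, was at 18.1, 24.2 and 24.4 CPM, then at 16.3, 19.4 and 14.4 CPM, then at 8.92, 6.96 and 9.22 CPM (log2 fold change -0.99, SE 0.22, and -1.01 at an equal score). Pdpr, the regulatory subunit of pyruvate dehydrogenase phosphatase, was at 19.1, 20.7 and 17.5 CPM, then at 15.6, 16.7 and 14.5 CPM, then at 9.08, 9.36 and 10.2 CPM (log2 fold change -0.71, SE 0.17, unadjusted p = 0.0028). In none of these did the libraries of the stages overlap, and the neuron-rich 4 h-3 was the highest library of its group in each, yet below all at 1 h.

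Ptger4, a prostaglandin E2 receptor, was at 6.94, 16.2 and 9.96 CPM at 1 h and at 3.304, 2.57 and 5.53 CPM at 4 h (log2 fold change -1.53, SE 0.42, and -1.49 at an equal score). Spry2, an inhibitor of receptor tyrosine kinase signalling, was at 17.8, 32.2 and 34.4 CPM and then at 9.25, 13.9 and 16 CPM (log2 fold change -1.11, SE 0.31). Both were without overlap. Sowahc was at 31.3, 50.02 and 29.4 CPM, then at 14.8, 25.8 and 25.4 CPM, then at 11.8, 11.1 and 10.7 CPM (log2 fold change -0.98, SE 0.29, and -1.23 at an equal score). Kctd11, a subunit of a ubiquitin ligase, was at 16.4, 19.6 and 18.5 CPM, then at 5.74, 8.12 and 5.72 CPM, then at 4.21, 4.39 and 3.29 CPM (log2 fold change -0.72, SE 0.24, and -0.96 at an equal score). These last genes were lower than normal at 1 h and lower again at 4 h, without overlap. Tgif1, a repressor of TGF-beta responses, was at 4.87, 13.8 and 10.9 CPM and then at 4.96, 5.05 and 3.62 CPM (log2 fold change -1.12, SE 0.40, and -1.52 at an equal score), and Spp1, osteopontin, was at 53.8, 393 and 88.4 CPM and then at 121, 22.4 and 22.6 CPM (log2 fold change -1.69, SE 0.98, and -2.95 at an equal score). Both overlapped between the stages, and Spp1 ranged from -3.03 without 4 h-1 to -0.36 without 1 h-2 with groups only, and from -4.31 without 4 h-3 to -1.87 without 1 h-2 at an equal score.

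Transiently high genes outside the immediate early list included Eif1a, a translation initiation factor, which was at 50.8, 85.2 and 75.8 CPM at 1 h and at 43.9, 37.6 and 46.2 CPM at 4 h (log2 fold change -0.73, SE 0.21, and -0.73 at an equal score). Tsku, a secreted proteoglycan, was at 11.3, 14.9 and 13.9 CPM in normal libraries, at 26.98, 29.3 and 36.3 CPM at 1 h and at 22.96, 18.6 and 17.1 CPM at 4 h (log2 fold change -0.66, SE 0.21). Dcun1d3, which acts in attaching NEDD8 to cullins, was at 20.6, 23.4 and 24.4 CPM, then at 25.8, 26.5 and 30.1 CPM, then at 18.3, 17.7 and 20.2 CPM (log2 fold change -0.55, SE 0.16). Tsku was still above all normal libraries at 4 h, whereas Dcun1d3 was then below all of them. Ppp1r10, a nuclear targeting subunit of protein phosphatase 1, was at 59.1, 60.9 and 51.2 CPM and then at 50.6, 38.2 and 33.2 CPM (log2 fold change -0.49, SE 0.19), which barely separated.

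Transiently low genes were below normal at 1 h and nearer to it at 4 h. Acot3, a peroxisomal acyl-CoA thioesterase, was at 16.5, 19.3 and 12.96 CPM in normal libraries, at 5.27, 4.66 and 6.58 CPM at 1 h and at 9.99, 12.1 and 10.1 CPM at 4 h. Its log2 fold change between the stages was 0.96 (SE 0.24, unadjusted p = 0.0035) and 0.85 (SE 0.28) at an equal score. Vstm4, a membrane protein of the immunoglobulin family, was at 15.1, 29.2 and 27.4 CPM, then at 10.3, 11.2 and 9.101 CPM, then at 25.5, 23.9 and 14.5 CPM (log2 fold change 1.06, SE 0.31, and 0.59 at an equal score). Acrbp was at 5.61, 4.79 and 4.61 CPM and then at 17.1, 11.02 and 6.19 CPM (log2 fold change 1.19, SE 0.37, and 0.57 at an equal score), and Tipin, a replication fork protein, was at 5.41, 7.86 and 6.33 CPM and then at 13.3, 13.2 and 8.23 CPM (log2 fold change 0.82, SE 0.26, and 0.49 at an equal score). In Vstm4, Acrbp and Tipin 4 h-3 was the lowest library at 4 h.

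Rpl17, Rps10 and RT1-CE10 were named for their p at an equal score. Rpl17, of the large ribosomal subunit, was at 95.7, 140.2 and 158 CPM at 1 h and at 193, 183 and 237 CPM at 4 h (log2 fold change 0.64, SE 0.23, and 0.76 at an equal score). Rps10, of the small subunit, was at 52.4, 56.9 and 78.4 CPM at 1 h and at 109, 89.2 and 93.2 CPM at 4 h (log2 fold change 0.63, SE 0.21, and 0.72 at an equal score). RT1-CE10, a class I histocompatibility gene, was at 3.27, 2.86 and 2.83 CPM at 1 h and at 4.38, 6.05 and 20.9 CPM at 4 h. Its 4 h-3 was far above the others, and its log2 fold change of 1.81 (SE 0.60) was 2.35 (SE 0.41, unadjusted p = 0.00044) at an equal score and 1.38 in that fit without 4 h-3. All of these have near-identical copies that can share reads, so their levels are uncertain. Nnat, Ncapg2, Mmp2 and Hnrnpc were also among the 10 higher genes of smallest p at an equal score. Nnat and Mmp2 themselves passed the slope test and rose with the score (slopes 0.18 and 0.084), so their values at an equal score depend on that slope. Mmp2, a matrix gelatinase, was at 53.9, 53.995 and 64.1 CPM at 1 h and at 56.6, 45.6 and 83.2 CPM at 4 h, which overlapped (log2 fold change 0.11, SE 0.32, and 0.60 at an equal score, and -0.063 with groups only under scaling by library size alone). Nnat, a small membrane protein of neurons, was at 34.5, 22.6 and 24.9 CPM at 1 h and at 14.1, 12.4 and 45.5 CPM at 4 h (log2 fold change -0.19, SE 0.59, and 0.66 at an equal score).

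Clock genes were examined because the time of day at sampling is not in the labels. Cry2, a repressor of the clock, was at 72.8, 76.1 and 75.95 CPM in normal libraries, at 75.1, 99.5 and 108 CPM at 1 h and at 165, 123 and 141 CPM at 4 h, without overlap (log2 fold change 0.60, SE 0.19, unadjusted p = 0.012, and 0.57 at an equal score). Nr1d1, the repressor Rev-erb alpha, was at 199.6, 218 and 201 CPM in normal libraries, at 11.4, 31.02 and 15.3 CPM at 1 h and at 29.3, 50.2 and 34.8 CPM at 4 h, far below normal at both stages (log2 fold change 0.98, SE 0.37, and 1.51 without 1 h-2). Nfil3 was at 9.13, 13.9 and 14.4 CPM, then at 68.8, 89.4 and 79.1 CPM, then at 123, 146 and 95.9 CPM, in steps without overlap (log2 fold change 0.62, SE 0.23). Of 18 clock genes tested, 4 were higher at an unadjusted p under 0.05 (Cry2, Nr1d1, Nfil3 and Usp2) and 0 were lower, and at an equal score 1 was, Cry2. Over all genes 1.36% were higher and 1.15% lower at that p, and 0.279% were higher at an equal score. The list's median of 0.14 was -0.060 under scaling by library size alone and ran from 0.043 (without 4 h-2) to 0.23 (without 4 h-3), with 0.067 without 4 h-1. Dbp, a clock output factor, was at 8.01, 6.46 and 8.55 CPM and then at 4.71, 10.1 and 7.84 CPM, at one low level in both stages.

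Of 20 glucocorticoid targets, 1 was higher at an unadjusted p under 0.05 (Per1) and 1 was lower (Mt1a). The shares of all genes were 1.36% and 1.15%. Per1, which is also a clock gene, was at 184, 198 and 151 CPM, then at 281, 376 and 218 CPM, then at 646, 504 and 406 CPM, in steps without overlap (log2 fold change 0.83, SE 0.27, unadjusted p = 0.016, and 0.53 at an equal score). Mt1a, a metallothionein with near-identical copies and hence an uncertain level, was at 47.9, 246 and 127 CPM and then at 49.8, 52.6 and 64.9 CPM (log2 fold change -1.33, SE 0.52), where 1 h-1 was below all libraries at 4 h and the log2 fold change without 1 h-2 was -0.65. Tsc22d3, often used to follow glucocorticoid action, was at 186, 371 and 310.4 CPM and then at 321, 421 and 248 CPM and overlapped.

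Of 20 hypoxia targets, 0 were higher and 1 was lower at an unadjusted p under 0.05, with a median of -0.14 that ran from -0.18 (without 4 h-3) to 0.11 (without 1 h-2), through 0. That gene was Hk2, a hexokinase, which was at 13.6, 137 and 58.4 CPM at 1 h and at 9.002, 4.81 and 14.6 CPM at 4 h (log2 fold change -2.87, SE 0.94, unadjusted p = 0.015), with 1 h-1 within the range at 4 h. Vegfa, an endothelial growth factor that the study names at 4 h, was at 74.005, 74.5 and 70.6 CPM in normal libraries, at 153, 93.2 and 128 CPM at 1 h and at 222, 150.1 and 144 CPM at 4 h (log2 fold change 0.46, SE 0.24, unadjusted p = 0.09). Pgk1, a glycolytic enzyme, was at 321, 109.8 and 221 CPM and then at 128, 97.9 and 317 CPM, highest in the 3 libraries with the most Dbh.

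Herpud1, a protein of endoplasmic reticulum degradation, was at 168, 201 and 101 CPM at 1 h and at 652, 401 and 183 CPM at 4 h. It was the only member of 14 in its list with an unadjusted p under 0.05 (log2 fold change 1.39, SE 0.49, unadjusted p = 0.022), against 2.52% of all genes. Its value was 0.54 (SE 0.43) at an equal score. With groups only it was 0.86 without 4 h-1. Of 14 heat shock genes tested, 0 had an unadjusted p under 0.05, 9 were higher, and the median of 0.37 was -0.22 without 4 h-1, 0.63 without 1 h-1 and 0.58 without 4 h-3. Hspb1, a small heat shock protein, was at 740.1, 772 and 272 CPM and then at 2320.1, 654 and 299 CPM, with 4 h-1 far above all others.

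Mitochondria were the concern of the study. Of the 7 genes it names at 1 h and the 11 tested of those it names at 4 h, 0 had an unadjusted p under 0.05 between the stages in either fit. The study set its 1 h genes against the normal group and measured protein for some, so this count does not test its claims. These lists were chosen on these samples and are not independent evidence of a direction. Tomm20, an import receptor with near-identical copies and hence an uncertain level, was at 56.4, 60.5 and 70.5 CPM, then at 83.6, 77.9 and 83.3 CPM, then at 107, 98.4 and 92.7 CPM, in steps without overlap (log2 fold change 0.28, SE 0.15, unadjusted p = 0.087). Bnip3, a mitophagy receptor, was at 152, 137 and 227 CPM and then at 75.5, 97.7 and 163 CPM (log2 fold change -0.62, SE 0.36, and -0.28 at an equal score). Inf2, a formin that acts in mitochondrial fission, was at 272, 299 and 187 CPM and then at 627, 430.1 and 223 CPM (log2 fold change 0.76, SE 0.38, and 0.089 at an equal score). Dnm1l, the fission enzyme Drp1, was at 164, 86.02 and 156 CPM and then at 100.3, 86.2 and 168 CPM, highest in the 3 libraries with the most Dbh. The 14 genes of mitochondrial dynamics had a median of -0.13 and the 16 of mitophagy and autophagy one of -0.035, with 0 at an unadjusted p under 0.05 in either list. These ran from -0.17 (without 1 h-2) to -0.035 (without 1 h-1) and from -0.079 (without 4 h-2) to 0.074 (without 1 h-3) when single libraries were left out. The 13 genes of the mitochondrial genome were all higher at 4 h, with a median of 0.59, 0.36 under scaling by library size alone and -0.033 at an equal score. It was 0.31 without 1 h-3, 0.32 without 4 h-1, 0.38 without 4 h-2, 0.96 without 1 h-1 and 0.97 without 4 h-3.

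Other tissue was also unevenly spread. The smooth muscle list, summed, was at 28674, 52401 and 14519 CPM at 1 h and at 76269, 55135 and 27183 CPM at 4 h, lowest in each stage in replicate 3. All 12 of its genes were higher at 4 h, with a median of 0.65 (0.43 under scaling by library size alone), and it was -0.13 at an equal score. When single libraries were left out it ran from 0.28 (without 4 h-1) to 1.20 (without 1 h-2), and it was 0.31 without 1 h-3 and 1.00 without 4 h-3. Myh11, the smooth muscle myosin, was at 4830.3 CPM or more in every ischemic library. The 12 adipocyte genes had a median of -1.21, -0.69 without 1 h-3 and -0.24 at an equal score, and Ucp1, the brown fat uncoupling protein, was at 84.9, 0.0666 and 2.83 CPM at 1 h and at 0, 0 and 36.5 CPM at 4 h. Endothelial genes had a median of -0.094, which ran from -0.28 (without 1 h-1) to 0.066 (without 1 h-2), and Pecam1 was at 112, 246 and 178 CPM and then at 121, 209.8 and 231 CPM. All 8 macrophage genes tested were lower at 4 h, with a median of -0.62 and 0.094 at an equal score. With groups only it ran from -1.079 (without 4 h-3) to -0.296 (without 1 h-3). All 3 lymphocyte genes tested were lower (median -0.67). All 4 red cell genes tested (median 0.67) and all 4 skeletal muscle genes tested were higher. Exocrine pancreas genes, summed, were at 5.48, 194 and 10.8 CPM at 1 h and at 8.09, 89.4 and 163 CPM at 4 h. In none of the cell type lists (neuron, chromaffin, Schwann, smooth muscle, endothelium, adipocyte, macrophage, neutrophil, lymphocyte, red cell, exocrine pancreas, skeletal muscle and gut epithelium) did a tested gene have an unadjusted p under 0.05 in either fit. Some lists were mostly untested, with 1 of 8 neutrophil, 3 of 11 lymphocyte, 4 of 10 skeletal muscle and 2 of 9 gut epithelium genes tested. The part of these mixtures in any difference between the stages, such as in the inflammation and interferon lists, was not tested.

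**Figure D4:**
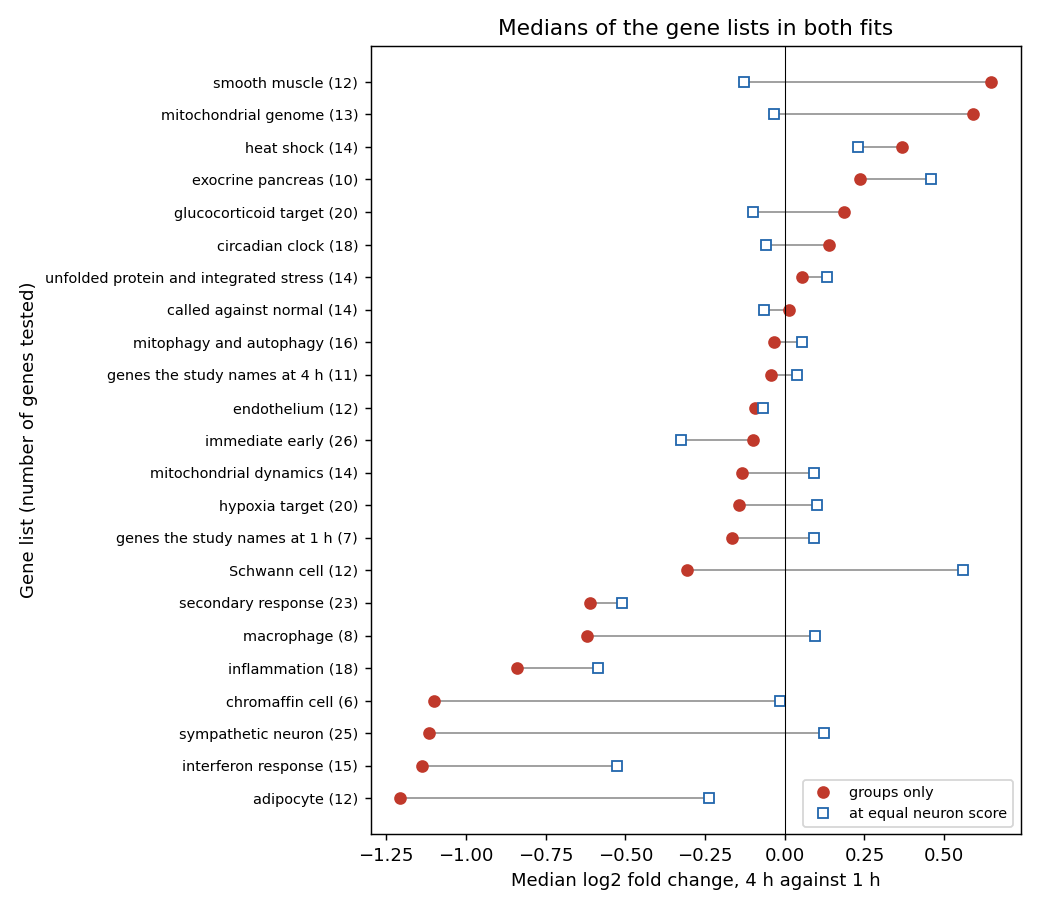
Median log2 fold change between 4 h and 1 h of each gene list with at least 5 genes tested, with groups only and at an equal neuron score. The median of sympathetic neuron genes is -1.11 with groups only and 0.12 at an equal score, where Dbh and Th, which make the score, are members, while those of inflammation and secondary response are -0.59 and -0.51 at an equal score.

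Some genes that earlier fits of these data called against normal had similar levels at 1 h and 4 h. They were chosen on the same libraries, so only their course between the stages is given. Sik1, a salt-inducible kinase, was at 8.91, 6.52 and 6.22 CPM in normal libraries, at 108, 134 and 94.3 CPM at 1 h and at 113, 169.8 and 138 CPM at 4 h (log2 fold change 0.32, SE 0.23). Apold1, an endothelial early response gene, was at 458, 524 and 625 CPM and then at 223, 550.5 and 699 CPM (log2 fold change -0.13, SE 0.40). Mfsd2a, a lipid transporter, was at 17.3, 38.4 and 19.9 CPM and then at 36.999, 20.4 and 28.4 CPM (log2 fold change 0.18, SE 0.35). Each of these overlapped between the stages. Nfkbia and Nfkbiz, regulators of NF-kappaB, had log2 fold changes of 0.36 (SE 0.27) and -0.28 (SE 0.30). Zbtb26, Ptafr and Zscan12 were lower than normal at 1 h and lower again at 4 h, without overlap. Zbtb26, a zinc finger protein, was at 11.3, 12.7 and 14.1 CPM, then at 4.01, 4.46 and 4.61 CPM, then at 2.48, 2.15 and 2.83 CPM (log2 fold change -0.81, SE 0.23, and -0.73 at an equal score). Of the 14 genes of this kind, 3 were higher and 5 lower between the stages at an unadjusted p under 0.05. The shares over all genes were 1.36% and 1.15%.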

How the data were processed

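RNA of the SMA was measured in 9 libraries. Per the labels, RNA was taken up in Trizol and sequenced on an Illumina instrument, and the submitters' processing notes name HISAT2 without a version. The study's methods describe arrays, but the authors deposited whole-number counts per gene symbol, which were used as raw read counts. Genome build, annotation, counting program and use of strand are not given in the sources used here, so overlapping and antisense genes cannot be separated. The study's methods give 9 rat chips of 3 conditions from 3 individuals, without saying whether each library was its own rat. P-values therefore measure only the spread between these libraries. Of the genes tested, 88.7% matched RefSeq symbols (GRCr8).

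Total counts were 13114273 to 15504240 per library, and no pair of libraries agreed within sampling noise (chi-square per degree of freedom at least 29.9). CPM used TMM-scaled library sizes. With R 4.3.3 and edgeR 4.0.16, glmQLFit and glmQLFTest were fitted to all 9 libraries and 15068 genes, with group as the only term, and again with the neuron score (mean log2 CPM of Dbh and Th, prior count 2), which left 6 and 5 residual degrees of freedom. Dbh and Th were left out of the second fit's counts. Adjusted p-values are Benjamini-Hochberg values over all genes tested. The code was tested on simulated data. DESeq2 1.42.0, other scalings, filters and scores, the 6 ischemic libraries alone, a replicate block and leaving out each library were tried as alternatives.

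Single genes were named by rule: Dbh and Th, the 10 higher and 10 lower genes of smallest p in each fit (at least 5 CPM on average, without overlap between the stages in the first fit), the 10 of smallest slope p, list members at an unadjusted p under 0.05 with up to 5 others per list, and genes that the study or earlier fits name. A few genes that this rule names are not reported here. Members, lists and tests were chosen with earlier results of these data known.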

Additional observations from a re-analysis of the deposited data

How the results depend on the processing

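Leaving out single libraries gave 0 to 1 genes called between the stages and 113 to 3255 genes at an unadjusted p under 0.05. All other alternatives called 0. At an equal neuron score DESeq2 called 2 genes and the other alternatives 0. The genes that followed the score within groups numbered 2387 with DESeq2 and 228 to 1712 when single libraries were left out. With the replicate block 196 genes followed the score, all of them among the 1246, while 0 were called between the stages in either fit. Deviations of same-numbered libraries from their group means correlated at -0.18, 0.65 and 0.69 across genes, so the numbers were not taken as pairs. Not every library correlated best with its own number, as 1 h-1 did so with 4 h-3 (0.40). Some values turned their sign, and none of these genes was called. At an equal score they were -0.49 for Gdap1 and -0.020 for Inf2 with the block, and -0.083 for Inf2 and -0.0031 for Mfsd2a in the 6 ischemic libraries alone. With groups only, Mmp2 was at -0.063 under scaling by library size alone. When single libraries were left out, values with groups only ran from -0.45 to 0.19 for Apold1, -0.077 to 0.62 for Mfsd2a, -1.02 to 0.12 for Nnat and -0.15 to 0.27 for Mmp2. At an equal score they ran from -1.26 to 0.0019 for Egr1, -0.99 to 0.43 for Gdap1, -0.058 to 0.54 for Inf2, -0.18 to 0.32 for Apold1 and -0.43 to 0.66 for Mfsd2a. Other log2 fold changes with groups only moved by over 1.5 times, to 0.75 for Acrbp without 4 h-1, 0.83 for RT1-CE10 without 4 h-3, -0.89 for Isg15 and -1.51 for Mx1 without 1 h-1 and -0.64 for Oasl without 1 h-3. The cause was not tested.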
